A study of Mus musculus with 8 samples.

Results

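The genes described here are 30 factors of coagulation and fibrinolysis, chosen by symbol from a table of 24547 genes measured by RNA sequencing of mouse liver. All 30 were found, and all 30 passed the filter on low counts that left 12861 genes for testing. The series compared 4 liver libraries from ICR mice, an outbred strain, given Psoraleae Fructus, a medicinal fruit, as a high-dose decoction by stomach tube for 30 days with 4 liver libraries from ICR mice of the control group, for which the labels name saline. The series is about liver damage by this preparation, and the question addressed here is how the transcripts of the clotting system differed between the groups. The labels used here give no dose by mass, sex, age, batch or hour of collection, and do not tie libraries to animals, so the spread behind each p-value is that between these libraries and may be technical.

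Hepatocytes make most circulating clotting factors and secrete them as inactive precursors. Thrombin, released from prothrombin by a cascade of proteases and cofactors, turns fibrinogen into fibrin, antithrombin and the protein C pathway restrain thrombin formation, and plasmin dissolves the clot. Several of the proteases need vitamin K for a modification of their glutamate residues. Fibrinogen is also an acute phase protein, whose genes are known to respond to interleukin 6 through its receptor subunit gp130 and the transcription factor STAT3. Factor VIII, von Willebrand factor and tissue factor pathway inhibitor come largely from endothelium, and tissue factor from cells around vessels and from other cells.

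Library totals ran from 15864399 to 20159132 counts, and the 30 genes were covered by 31 (F3) to 109165 (Fgb) counts per library. Values per library are CPM (the count divided by the library total in units of 1000000 counts), scaled with TMM factors that ran from 0.937 to 1.11. A log2 fold change is the treated level minus the control level. Adjusted p-values come from edgeR's quasi-likelihood F test with Benjamini-Hochberg adjustment over all 12861 genes. The standard error (SE) given with a log2 fold change was derived from that test, as the size of the change divided by the square root of F. A gene was called when its adjusted p was under 0.05. The summed level of 11 hepatocyte markers was 118150 to 182943 CPM in controls and 149521 to 167909 CPM in treated libraries. Most of this sum is Alb, with means of 116450 CPM in controls and 117620 CPM in treated libraries. Of the 11 markers 0 were called. An unadjusted p under 0.05 by edgeR was found for 2, Apoa2 (log2 0.52) and Serpina1a (log2 -0.74). That is 18.2% of them, against 29.4% of all genes tested. Some markers varied widely between controls. Tat stood at 5732 CPM in control 1, at 513 to 1056 CPM in the other controls and at 1188 to 1954 CPM in treated libraries. Pck1 ran from 548 to 4783 CPM in controls and from 2344 to 2564 CPM in treated libraries. An uncalled marker need not be unchanged. In bulk tissue, fewer cells of a type and less RNA per cell cannot be told apart.

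All 3 fibrinogen chains stood lower in every treated library than in any control library, and Fga fell beyond the threshold. The genes lie together on mouse chromosome 3 within 42.1 kb (GRCm38), with Fgg at 83007724 to 83015049, Fga at 83026076 to 83033627 and Fgb at 83040141 to 83049863, the last on the opposite strand. Their promoters are shown because the chains move together. Each run is 140 bases from RefSeq's promoter windows (GRCm38.p6), read 5′ to 3′ on the gene's own strand and ending before the gene start of both RefSeq and GENCODE, and the capitals mark CTGGGA, the core of the interleukin 6 response element described for fibrinogen genes.
Fga promoter, plus strand, chr3:83025936-83026075: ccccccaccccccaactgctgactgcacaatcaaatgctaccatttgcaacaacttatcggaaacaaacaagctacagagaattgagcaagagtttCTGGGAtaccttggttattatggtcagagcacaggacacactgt
Fgb promoter, minus strand, chr3:83049864-83050003: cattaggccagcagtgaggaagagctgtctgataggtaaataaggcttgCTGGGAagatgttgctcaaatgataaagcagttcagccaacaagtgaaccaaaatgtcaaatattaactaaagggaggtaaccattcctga
Fgg promoter, plus strand, chr3:83007584-83007723: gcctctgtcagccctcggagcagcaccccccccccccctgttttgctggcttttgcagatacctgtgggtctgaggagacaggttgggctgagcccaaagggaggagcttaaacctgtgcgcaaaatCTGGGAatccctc

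The printed CTGGGA match begins 121 bases before the RefSeq start of Fga, 91 before that of Fgb and 13 before that of Fgg. Each lies on the coding strand. For Fga the RefSeq start lies downstream of the end of the printed run. Fgb has a further match on the other strand, 45 bases after its start and outside the printed run. Motifs were searched on both strands of windows of 300 bases (250 before the start and 50 after). CTGGGA was present for 3 of 3 fibrinogen genes, for 13 of the 25 members that have a window, and for 31.5% of 27025 promoter windows. It was chosen because it is described for fibrinogen genes, so the 3 of 3 is no result of these data. TTGCNNAA, a C/EBP motif, was present for Fga and Fgb and for 10.8% of all windows, and CAAAGT, part of the HNF4 site, for none of the chains and 14.3% of all windows, and each of these motifs was present for 9 of the 25 members (36%). No match of one motif overlapped a match of another in the members' windows. Members were counted per gene and the background per window, so these shares are unlike measures. A match describes letters in a window and is no evidence of binding.

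Fga encodes the alpha chain, from which thrombin releases fibrinopeptide A. It stood at 5809, 4897, 6363 and 5697 CPM in controls 1 to 4 and at 3651, 3553, 3716 and 3940 CPM in treated libraries 1 to 4. The lowest control lay above the highest treated library, and the treated libraries lay close together. The means were 5692 ± 605 and 3715 ± 165 CPM (SD, n = 4 per group), a log2 fold change of -0.62 (SE 0.16, adjusted p = 0.0429 by edgeR).

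Fgb encodes the beta chain, whose synthesis is often described as limiting for assembly. It stood at 5827, 5539, 5762 and 5730 CPM in controls and at 4277, 3886, 4037 and 4303 CPM in treated libraries. The groups did not overlap, and the control libraries differed little from each other. The log2 fold change was -0.47 (SE 0.15, adjusted p = 0.0773), which is not past the threshold. Fgg, the gamma chain with the main site for platelet binding and crosslinking, stood at 4075, 3568, 4394 and 3922 CPM in controls and at 2771, 2532, 2784 and 2827 CPM in treated libraries. These groups were also apart, with a log2 fold change of -0.55 (SE 0.15, adjusted p = 0.0528). Among the chains edgeR called Fga alone, and whether the chains differed from each other in fold change was not tested.

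**Figure D1:**
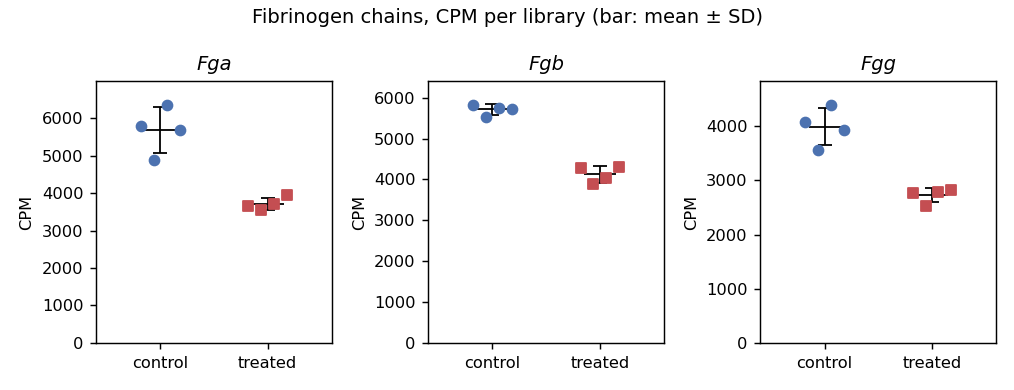
CPM (vertical axis, from 0) of Fga, Fgb and Fgg in each of 4 control (circles) and 4 treated (squares) libraries, with the mean ± SD as a bar. In each panel every treated library lies below every control library, with means of 5692 and 3715 CPM for Fga.

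The Fga call depended on which libraries entered the fit. Leaving out control 2 or control 4 kept it (adjusted p = 0.0497 and 0.0395), and leaving out control 1 (0.0532), control 3 (0.111) or any 1 treated library (0.093 to 0.122) lost it, with log2 fold changes between -0.67 and -0.56 throughout. After an offset for gene length and GC content the log2 fold changes were -0.60 for Fga (adjusted p = 0.0706), -0.32 for Fgb (0.225) and -0.43 for Fgg (0.133).

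The chains are abundant enough to be given as a share of the whole library. Fibrinogen took 1.50%, 1.55%, 1.66% and 1.53% of all counts in controls 1 to 4 and 1.06%, 1.04%, 0.986% and 1.08% in treated libraries. The 27 other members together took 1.91% to 2.15% in controls and 2.21% to 2.22% in treated libraries. Fibrinogen made up 43.7% ± 2.28 of the counts on the 30 genes in controls and 31.9% ± 0.872 in treated libraries (SD, n = 4 per group), given as a description with no test.

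**Figure D2:**
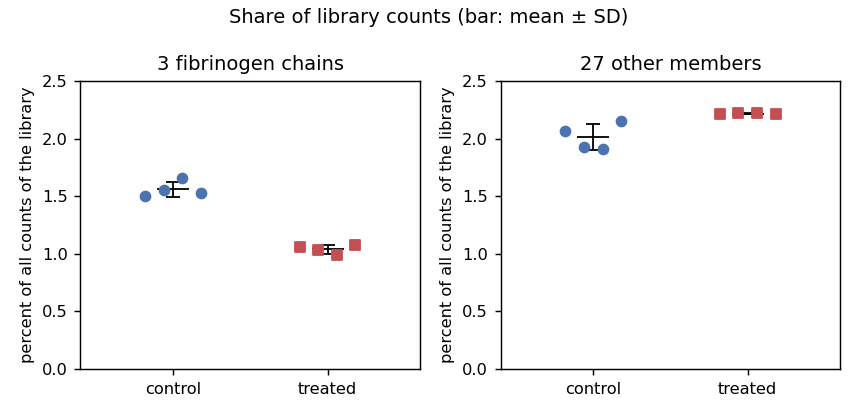
Percent of all counts of a library (vertical axes, from 0) on the 3 fibrinogen chains (left) and on the 27 other members (right), with 1 point per library and the mean ± SD as a bar. Fibrinogen takes 1.50% to 1.66% in controls and 0.986% to 1.08% in treated libraries, while the other members take 2.21% to 2.22% in treated libraries.

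Other acute phase genes are given beside fibrinogen. Of 13 tested positive acute phase genes other than fibrinogen, 0 were called by edgeR, 3 had an unadjusted p under 0.05 (Apcs, Saa3 and Cp, each negative in log2 fold change), and 11 had a negative log2 fold change. The 3 are 23.1% of the list, below the 29.4% of all genes tested with such a p. Their median log2 fold change was -0.41, against -0.037 over all genes tested. The summed level of the 14 listed genes ran from 11381 to 21870 CPM in controls and from 10775 to 14511 CPM in treated libraries, so these sums overlapped. Their part in the fibrinogen result was not tested.

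Among the regulators fixed for the liver genes, 2 of the interleukin 6 route were called lower. Stat3, the transcription factor, stood at 191, 174, 193 and 122 CPM in controls and fell to 94.3, 99.2, 114 and 93.8 CPM in treated libraries (log2 -0.76, SE 0.16, adjusted p = 0.0216). Il6st, the gp130 receptor subunit, stood at 324, 319, 328 and 233 CPM in controls and fell to 200, 210, 192 and 209 CPM (log2 -0.57, SE 0.14, adjusted p = 0.0375). Neither gene had overlapping groups, and control 4 was the lowest control for both. The part of either gene in the fibrinogen values was not tested.

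Cebpa, a hepatocyte transcription factor, rose, with means of 276 ± 68.7 CPM in controls and 516 ± 86.2 CPM in treated libraries (SD, n = 4 in each; log2 0.90, SE 0.20, adjusted p = 0.0262). Il6ra, the ligand-binding receptor chain, stood at 118 ± 70.8 against 161 ± 26.6 CPM and Socs3, the feedback inhibitor of this route, at 10.2 ± 1.40 against 9.09 ± 4.54 CPM, neither of them called. Hnf4a stood at 870 ± 240 against 1070 ± 90.1 CPM, also not called. With 12 regulators tested, 1 was called higher and 2 lower, or 25% against 9.21% of all genes tested (5.46% higher and 3.75% lower). This is a count of 3 genes on a list chosen with earlier results known. An unadjusted p under 0.05 by edgeR was found for 5 of the 12, 2 higher and 3 lower (41.7% against 29.4% of all genes tested). Nr1h4 (log2 0.50, SE 0.21) and Onecut1 (log2 -0.93, SE 0.36) were among them, were not called and had overlapping groups. After the length and GC offset Stat3 kept its call (log2 -0.69, adjusted p = 0.0374), and Il6st (-0.40, adjusted p = 0.102) and Cebpa (0.50, adjusted p = 0.166) lost theirs. The Stat3 call was lost without control 3 (adjusted p = 0.064) or any 1 treated library (0.0577 to 0.0681), that of Il6st in each fit other than without control 4 (0.0587 to 0.117), and that of Cebpa without control 2, control 3, treated library 2 or treated library 3 (0.0545, 0.0773, 0.0679 and 0.0862).

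Counted over all 30 members, 1 gene rose and 2 fell, which is 10% called against 9.21% of all genes tested (5.46% higher and 3.75% lower). This share is close to that background and is not a result about the list. Without an overlap between the groups were 9 members, 4 with treated libraries above (Proc, F2, F12 and Vtn) and 5 with treated libraries below (the fibrinogen chains, F8 and Cpb2), which is 30% against 18.9% of all genes tested (10.2% above and 8.7% below). An unadjusted p under 0.05 was found for 13 members, 6 of them higher and 7 lower, or 43.3% against 29.4% (14.1% higher and 15.3% lower). The median log2 fold change was 0.12 against -0.037 over all genes tested, and 19 of 30 were positive. The median size of change, without its sign, was 0.300 for the members and 0.302 for all genes tested.

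The number of members called differed between fits, and each is given here with the percent of all genes called in the same fit. The same 3 genes were called with DESeq2 size factors (9.25% of all genes) and with non-robust dispersion (9.02%), and with no low-count filter F8 took the place of Fga (4.66%). Library size alone (7.74%) and limma on log2(FPKM + 1) (7.49%) or log2(FPKM + 0.1) (7.74%) each called the fibrinogen chains, Cpb2 and Proc, and limma with no filter called Proc (2.09%). The DESeq2 Wald test called 9 members, 30% of them against 15.4% of all genes. After the length and GC offset 0 members were called (4.58%). A replicate block left Cpb2 (7.34%), and with that offset Klkb1 (3.78%).

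Leaving out control 4 gave 7 called members (Cpb2, F8, Fga, Fgg, Klkb1, Proc and Proz) with 17.8% of all genes called. Leaving out control 1 gave 3 (Cpb2, F12 and Proc; 8.58%), control 2 gave 1 (Fga; 4.49%) and treated library 1 gave 1 (F8; 3.52%). Leaving out control 3 (3.04%), treated library 2 (3.51%), treated library 3 (1.4%) or treated library 4 (3.61%) gave 0. Without controls 2 and 4 together, a choice made after seeing the data, 1 was called (Fga, adjusted p = 0.0435; 8.07%).

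**Figure D3:**
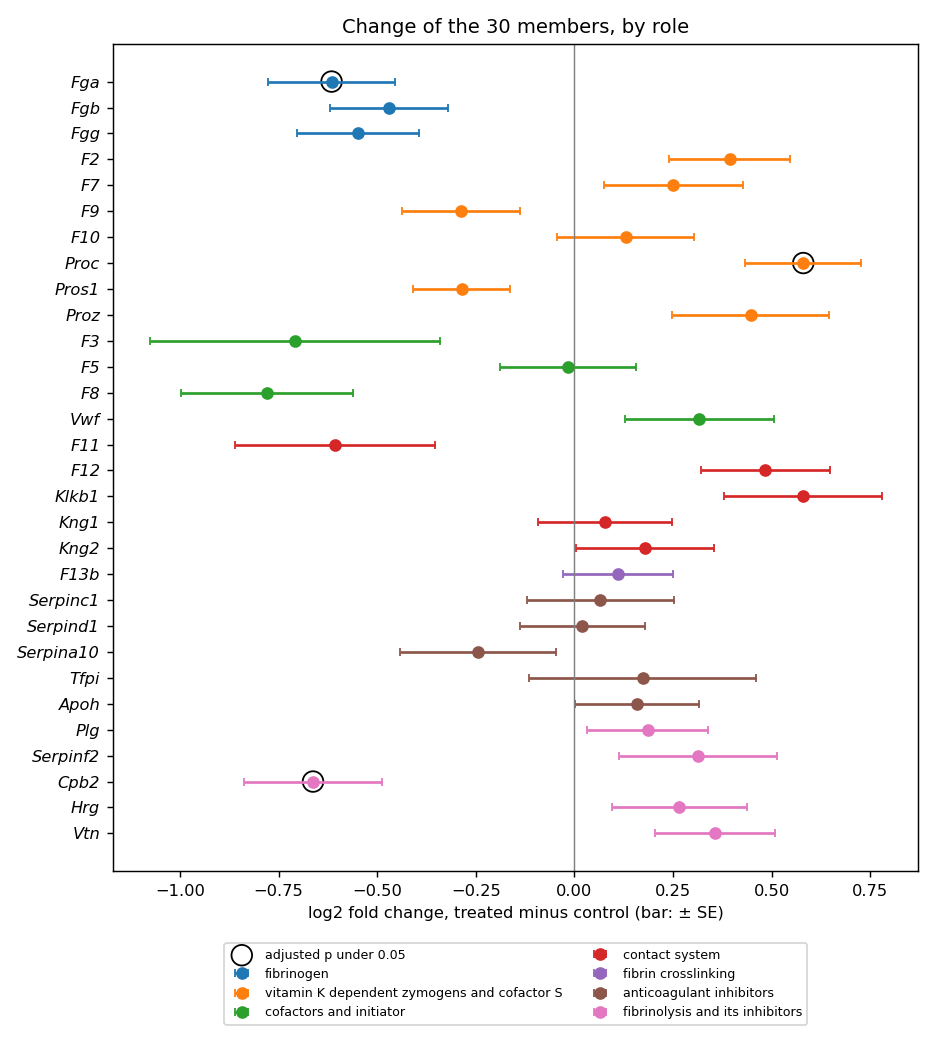
Log2 fold change (horizontal axis, treated minus control) of the 30 members, grouped by role through colour, with ± SE as bars and rings around genes with an adjusted p under 0.05. The fibrinogen chains lie between -0.62 and -0.47, and the rings mark Fga, Cpb2 and Proc.

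Levels per length and depth (FPKM) placed the members across a wide range. Fgg was highest at 1930 ± 117 FPKM in controls and 1282 ± 35.9 in treated libraries, followed by Fga at 1913 ± 142 and 1214 ± 48.5, and both are among the 31 highest genes of the table by mean FPKM. By the mean over all libraries Apoh, beta-2-glycoprotein I, came next at 1401 ± 149 and 1519 ± 68.6 FPKM and was not called (log2 0.16, SE 0.16). In CPM, Apoh stood at 2585, 2167, 2051 and 2014 in controls and at 2574, 2288, 2623 and 2365 in treated libraries, with overlapping groups. Fgb followed at 1521 ± 62.1 and 1066 ± 54.3 FPKM. In controls Fgg and Fga differed by less than their SDs, and in treated libraries the mean FPKM of Apoh was above that of each fibrinogen chain. At the other end, Vwf had 0.307 ± 0.0426 and 0.374 ± 0.064 FPKM.

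**Figure D4:**
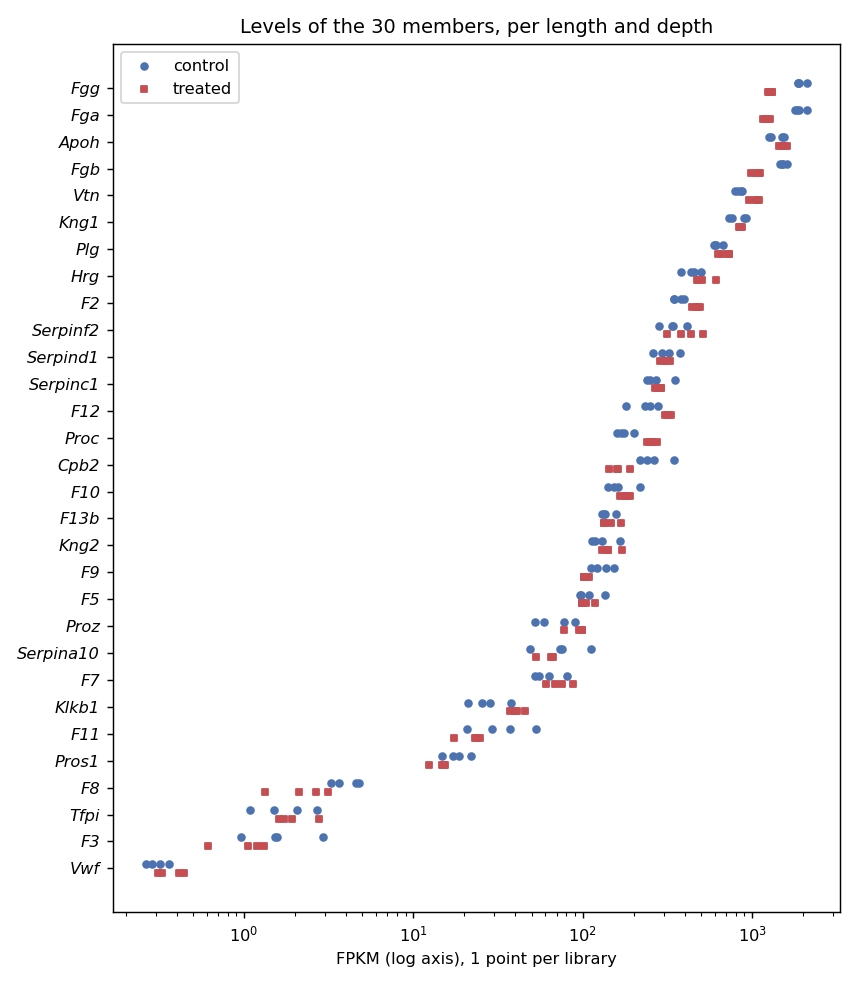
FPKM (horizontal log axis) of the 30 members, ordered by mean level, with 1 point per library for 4 control (circles) and 4 treated (squares) libraries. Fgg, Fga, Apoh and Fgb are highest by mean, and F8, Tfpi, F3 and Vwf lie lowest, with Vwf at 0.307 FPKM in controls.

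Of the 7 vitamin K dependent genes, Proc rose and the others did not pass the test. Proc encodes protein C, which inactivates factors V and VIII once thrombin has activated it. It stood at 454, 378, 392 and 498 CPM in controls and at 625, 613, 725 and 611 CPM in treated libraries. The highest control lay below the lowest treated library, with means of 430 ± 55.8 and 644 ± 54.6 CPM (SD, n = 4 per group; log2 0.58, SE 0.15, adjusted p = 0.0396). The call of Proc held without control 1 or control 4 (adjusted p = 0.0479 and 0.0184). It was lost without control 2 (0.0816), control 3 (0.105) or any 1 treated library (0.0757 to 0.123), and after the length and GC offset (log2 0.41, adjusted p = 0.133).

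F2, prothrombin, stood at 1813, 1440, 1590 and 1819 CPM in controls and at 2174, 2170, 2319 and 2088 CPM in treated libraries. The groups did not overlap, but the log2 fold change of 0.39 (SE 0.15) was not past the threshold (adjusted p = 0.124). Pros1, protein S and the cofactor of activated protein C, stood at 60.3 to 80.9 CPM in controls and at 53.8 to 63.5 in treated libraries (log2 -0.29, SE 0.12, adjusted p = 0.157). F9, the protease whose cofactor is factor VIII, stood at 277 to 419 against 268 to 300.2 CPM (log2 -0.29, SE 0.15). Neither Pros1 nor F9 passed the test, and their groups overlapped.

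F7, F10 and Proz lie in a row on chromosome 8 within 49.99 kb (13026034 to 13076026). F7, the protease that works with tissue factor, had a log2 fold change of 0.25 (SE 0.18). F10, which cuts prothrombin, had one of 0.13 (SE 0.17), and Proz, protein Z and cofactor of the inhibitor encoded by Serpina10, one of 0.45 (SE 0.20, adjusted p = 0.166). All 3 were positive and none was called with all libraries. Proz stood at 304, 296, 429 and 500 CPM in controls, and without control 4 it was called (log2 0.61, adjusted p = 0.047).

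In the contact system, which starts clotting on negatively charged surfaces and releases bradykinin, 0 of 5 genes were called by edgeR, 3 of 5 had an unadjusted p under 0.05 (F11, F12 and Klkb1), and DESeq2 called 1 (F12). Over all genes tested these shares were 9.21%, 29.4% and 15.4%. F12, factor XII, stood at 566, 440, 354 and 460 CPM in controls and at 655, 599, 675 and 617 CPM in treated libraries. Its groups did not overlap (log2 0.48, SE 0.16, adjusted p = 0.0895), and it was called without control 1 (adjusted p = 0.0416). After the length and GC offset its log2 fold change was 0.22 (adjusted p = 0.422).

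Klkb1, plasma prekallikrein, and F11, factor XI, are neighbouring paralogs on chromosome 8, 4.66 kb apart and on the same strand. In the annotation Klkb1 shares 2267 exonic bases with Gm45753, a gene on that strand that is not among the counted genes. Its part in the Klkb1 counts was not tested. Klkb1 stood at 139, 99.5, 148 and 198 CPM in controls and at 210, 187, 256 and 221 CPM in treated libraries (log2 0.58, SE 0.20, adjusted p = 0.0948). F11 stood at 48.4, 75.6, 64.8 and 119 CPM in controls and at 39.1, 53.3, 55.5 and 54.5 CPM in treated libraries (log2 -0.61, SE 0.25, adjusted p = 0.149). The fold changes had opposite signs, both groups of values overlapped, and neither gene was called. Control 4 was the highest control for both, and without it the log2 fold change was 0.76 for Klkb1 (adjusted p = 0.0191) and -0.31 for F11 (adjusted p = 0.238).

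Kng1 and Kng2 encode kininogens, the precursors of bradykinin, and lie with Hrg within 131 kb of chromosome 16. Kng1 stood at 2663 ± 434 against 2809 ± 128 CPM (log2 0.077, SE 0.17) and Kng2 at 357 ± 79.7 against 404 ± 46.4 CPM (log2 0.18, SE 0.17). They are close paralogs, so the split of reads between them is uncertain. Neither was called.

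**Figure D5:**
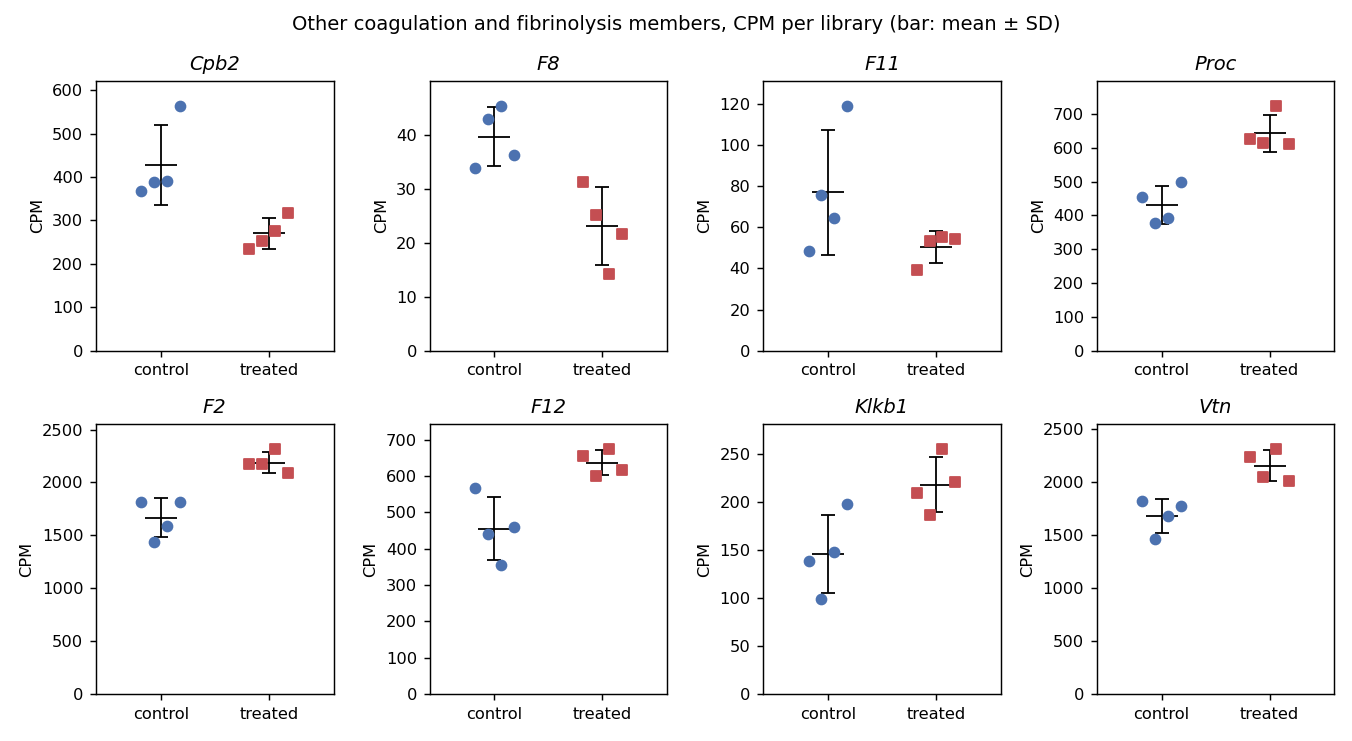
CPM (vertical axes, from 0) of 8 further members in each of 4 control (circles) and 4 treated (squares) libraries, with the mean ± SD as a bar. Treated libraries lie below all controls for Cpb2 and F8 and above all controls for Proc, F2, F12 and Vtn, and the groups overlap for F11 and Klkb1.

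Among genes of fibrinolysis, Cpb2 fell and the others did not pass the test. Cpb2 encodes the carboxypeptidase TAFI, which removes lysines from fibrin and so slows plasmin formation. It stood at 369, 387, 391 and 564 CPM in controls and at 234, 254, 276 and 318 CPM in treated libraries. All treated libraries lay below the lowest control, and control 4 stood well above the other controls. The means were 428 ± 91.5 and 270 ± 36.2 CPM (SD, n = 4 per group; log2 -0.66, SE 0.18, adjusted p = 0.0444). The call of Cpb2 held without control 1 or control 4 (adjusted p = 0.0432 and 0.0418, log2 -0.50 without control 4) and was lost without control 2 (0.0684), control 3 (0.0853) or any 1 treated library (0.0692 to 0.124). After the length and GC offset the log2 fold change was -0.61 (adjusted p = 0.0619).

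Plg, plasminogen, stood at 2279 ± 243 against 2592 ± 136 CPM (log2 0.19, SE 0.15). Serpinf2, the main plasmin inhibitor, stood at 785 ± 124 against 975 ± 226 CPM (log2 0.31, SE 0.20), and Hrg, histidine-rich glycoprotein, at 876 ± 127 against 1053 ± 157 CPM (log2 0.27, SE 0.17). None of these was called, and the groups overlapped for each. Vtn, vitronectin, which stabilises the plasminogen activator inhibitor PAI-1, stood at 1461 to 1823 CPM in controls and at 2014 to 2316 CPM in treated libraries, with no overlap (log2 0.36, SE 0.15, adjusted p = 0.153). Of the 5 fold changes in this group, 4 were positive and that of Cpb2 was negative. F13b, the carrier subunit of the fibrin-crosslinking factor XIII, stood at 347 ± 40.4 against 375 ± 36.7 CPM (log2 0.11, SE 0.14).

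None of the 5 anticoagulant inhibitor genes was called by edgeR, and 0 of 5 had an unadjusted p under 0.05. Over all genes tested these shares were 9.21% and 29.4%, so counts of 0 among 5 genes are no result about this group. Serpinc1, antithrombin, stood at 2345 ± 499 against 2455 ± 163 CPM (log2 0.066, SE 0.19), with control 4 at 3007 CPM. Zbtb37, a gene on the other strand, shares 2942 exonic bases with Serpinc1 in the annotation, and without strand their reads cannot be told apart there. Serpind1, heparin cofactor II, had a log2 fold change of 0.020 (SE 0.16), and Serpina10, the protein Z-dependent inhibitor, one of -0.24 (SE 0.20) with control values from 179 to 352 CPM. DESeq2 also called none of these 5, against 15.4% of all genes.

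Of the cofactors and the initiator (F3, F5, F8 and Vwf), 0 of 4 were called by edgeR. F8 alone had an unadjusted p under 0.05 and was called by DESeq2. Over all genes 9.21% were called by edgeR, 29.4% had such a p and 15.4% were called by DESeq2. F8, factor VIII, stood at 33.9, 42.9, 45.4 and 36.2 CPM in controls and at 31.3, 25.2, 14.1 and 21.6 CPM in treated libraries. The groups were just apart, with a log2 fold change of -0.78 (SE 0.22, adjusted p = 0.0528), and F8 was called without control 4 or without treated library 1 (adjusted p = 0.0464 and 0.0441). After the length and GC offset its log2 fold change was -0.45 (adjusted p = 0.166).

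Liver F8 is known to come from sinusoidal endothelium. Of 14 markers of that endothelium, 14 had a negative log2 fold change and 2 fell (Pecam1 and Tek), with a median of -0.35. Called were 14.3% of these markers against 9.21% of all genes tested (3.75% lower), and 6859 of the 12861 genes tested were negative. Their summed level was 659 to 903 CPM in controls and 440 to 642 CPM in treated libraries, and no marker was at 0. Of 10 macrophage markers, 10 had a negative log2 fold change, with a median of -0.76, and Adgre1 and Timd4 called lower (20% of them). Their summed level was 590 to 1529 CPM in controls and 412 to 816 CPM in treated libraries, which overlapped. The part of either cell type in the F8 values was not tested.

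Vwf, von Willebrand factor and the carrier of factor VIII, stood at 6.07, 4.60, 4.59 and 4.25 CPM in controls and at 6.65, 6.86, 5.34 and 5.44 CPM in treated libraries. Its log2 fold change was positive (0.32, SE 0.19) and not called, and the groups overlapped. Tfpi, tissue factor pathway inhibitor, stood at 6.19, 7.39, 11.1 and 14.7 CPM in controls and at 15.2, 8.39, 10.1 and 10.8 CPM in treated libraries (log2 0.17, SE 0.29). F3, tissue factor, stood at 2.52, 3.46, 3.96 and 7.45 CPM in controls and at 1.55, 3.17, 2.85 and 3.11 CPM in treated libraries (log2 -0.71, SE 0.37, adjusted p = 0.230). Control 4 was highest among controls for Tfpi and F3, and all groups overlapped. F5, factor V, which hepatocytes also make, stood at 803 ± 160 against 795 ± 79.7 CPM (log2 -0.015, SE 0.17).

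Beyond the 30 genes, 49 further genes of haemostasis and its regulation were examined, of which 40 passed the filter. The calls were those of Cebpa, Stat3 and Il6st, 1 higher and 2 lower. This is 7.50% of the genes tested, against 9.21% over the table, and the median log2 fold change was -0.15. Hgfac, a protease that activates hepatocyte growth factor, was next by unadjusted p and stood at 152 ± 14.6 against 201 ± 26.2 CPM (log2 0.40, SE 0.14, adjusted p = 0.0908).

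The counts of the next 3 lists stand beside 9.21% of all genes tested called by edgeR and 29.4% with an unadjusted p under 0.05. Of 6 tested genes of plasminogen activation, 0 were called by edgeR, 0 had an unadjusted p under 0.05, and 5 had a negative log2 fold change. Of 10 genes of the vitamin K cycle and of factor secretion, 0 were called by edgeR and 0 had an unadjusted p under 0.05. Ggcx, the carboxylase that modifies the vitamin K dependent factors, stood at 54.5 ± 14.02 against 43.3 ± 6.58 CPM. Of 12 tested endothelial and other regulators, 0 were called by edgeR and 2 had an unadjusted p under 0.05 (Hgfac and Tfpi2), and Thbd, thrombomodulin, stood at 8.64 ± 7.02 against 3.96 ± 1.57 CPM. Platelet markers were low, with 9 genes summing to 3.18 to 9.37 CPM in controls and 3.34 to 9.83 CPM in treated libraries.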

How the data were processed

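Per the labels' protocols, liver RNA was extracted with Trizol, selected on poly-T beads and made into libraries with a kit that does not mark strand. The authors deposited raw read counts per gene and FPKM values for 8 libraries. HISAT2, HTSeq 0.13.5, DESeq2 1.32.0 and GRCm38 are named in the submitters' processing notes, with no role stated. No source used here gives the strand setting or annotation release, so overlapping genes on opposite strands cannot be told apart. The deposited FPKM values equal the count divided by gene length and library total, and lengths were recovered from them.

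Counts were fitted in R 4.3.3 with edgeR 4.0.16 (filterByExpr with minimum count 10 and total 15, TMM, robust quasi-likelihood F test, intercept and group). Of 24547 genes, 12861 were tested. Alternatives were DESeq2 size factors, library size alone, no filter, non-robust dispersion, DESeq2 1.42.0, limma 3.58.1 on log2 FPKM with a pseudocount of 1 or 0.1 (mean FPKM of 0.5 or more, or unfiltered), a replicate block, per-library spline offsets for gene length and GC content (GENCODE vM21 transcripts), and leaving out libraries. The fits were tested on simulated counts. No pair of libraries was near-identical (chi-square per degree of freedom at least 29.7).

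Members and lists were chosen with earlier results of these data known. Library values are given for called members, for up to 10 members of smallest unadjusted p under 0.05, for the 3 of highest FPKM, and for F3, F8, Vwf and Tfpi. Of the wider list the called genes, or at least 4 by p, are named, and other genes named from it were chosen after their values were seen. Promoters come from RefSeq (GRCm38.p6) and matched 25 of 30 members.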

Additional observations from a re-analysis of the deposited data

Results flagged for a closer look

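Of 68 groups of 4 libraries examined (34 genes in each group), 8 held a library far from the other 3 by Dixon's criterion, under which chance gives about 1 in 20. Control 1 stood apart for F5 at 1043 CPM (others 711 to 731) and for Kng2 at 476 CPM (others 309.9 to 323). Control 4 stood apart for Cpb2 at 564 CPM (others 369 to 391) and for Il6st at 233 CPM (others 319 to 328). Treated library 1 stood apart for F11 at 39.1 CPM (others 53.3 to 55.5) and for F13b at 429 CPM (others 349.6 to 362). Treated library 2 stood apart for F9 at 268 CPM (others 296 to 300.2), and treated library 3 for Proc at 725 CPM (others 611 to 625).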

How the results depend on the processing

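With all libraries, 702 genes of the table were called higher and 482 lower, 1 and 2 of the members, and 1 and 2 of the wider list. The DESeq2 Wald test called 1137 and 1016 genes, 4 members higher (F12, F2, Proc and Vtn) and 5 lower (Cpb2, F8, Fga, Fgb and Fgg), and 2 wider genes higher. Limma called 260 genes lower on log2(FPKM + 1), 286 on log2(FPKM + 0.1), and 372 higher and 108 lower with no filter. It called 4 members lower with the filter (the fibrinogen chains and Cpb2) and 0 lower without it, where 0 wider genes were called in either direction. Library size alone also called 4 members lower, the same genes. The length and GC offsets gave 403 higher and 186 lower, 0 members in either direction, and 0 wider genes higher and 1 lower. With a replicate block 0 members were called higher and 1 lower (Cpb2), and 1 wider gene lower. With the replicate block and the offsets together, the counts were 334 and 152 genes, 0 members lower, and 0 wider genes higher and 1 lower. The labels do not say what the shared numbers mean, and the deviations of same-numbered libraries correlated between -0.012 and 0.18, so the numbers were not taken as pairs. Of the 8 libraries, 3 correlated best with the library of their own number. Without controls 2 and 4 together, chosen after seeing the data, 0 members were called higher and 1 lower, and 4 wider genes lower. With 1 library left out, the calls ran from 147 to 1224 higher and 36 to 1106 lower over the table, from 0 to 3 and 0 to 4 among members, and from 0 to 3 and 0 to 3 in the wider list. The lowest counts over the table came without treated library 3, and the highest without control 4.

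Sign changes occurred for small, uncalled fold changes. F5 was positive with no low-count filter (0.011), with the offsets (0.15), with the replicate block and the offsets (0.16) and without control 1 (0.14), treated library 2 (0.056) or treated library 4 (0.0094). Serpind1 was negative with library size alone (-0.022), on log2(FPKM + 1) (-0.0093, with and without the filter), on log2(FPKM + 0.1) (-0.0093) and without control 1 (-0.037), control 2 (-0.038) or treated library 3 (-0.0023). Kng1 (-0.0014) and Serpinc1 (-0.023) were negative without control 2, Tfpi (-0.0041) without treated library 1, and Serpina10 was positive (0.014) without controls 2 and 4 together. With 1 library left out, the log2 fold change ran from -0.070 to 0.14 for F5, -0.023 to 0.21 for Serpinc1, -0.038 to 0.13 for Serpind1, -0.0041 to 0.44 for Tfpi and -0.0014 to 0.16 for Kng1. The fibrinogen chains, Cpb2 and Proc kept their direction in every alternative run. The cause of the changes was not tested. With 4 libraries a group, small fold changes are at the limit of what the fit resolves, and an uncalled gene need not be unchanged.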

Other observations

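Ratios of counts within a library do not depend on the scaling between libraries. They were chosen after values were seen, and no test was run on them. Prothrombin counts per count of fibrinogen alpha chain (F2 over Fga) were 0.312, 0.294, 0.250 and 0.319 in controls 1 to 4 and 0.595, 0.611, 0.624 and 0.530 in treated libraries. Each treated library lay above each control. Klkb1 over its neighbour F11 was 2.87, 1.317, 2.29 and 1.66 in controls and 5.36, 3.51, 4.61 and 4.06 in treated libraries, also apart, although the groups overlapped for each gene on its own. Protein C counts per protein S count (Proc over Pros1) ran from 4.67 to 7.07 in controls and from 9.63 to 13.5 in treated libraries. Kng1 over Kng2 overlapped, at 6.55 to 9.38 in controls and 6.10 to 7.61 in treated libraries. Per length, Fga over Fgb was 1.12 to 1.40 in controls and 1.08 to 1.17 in treated libraries, which overlapped as well.

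Fold changes of the members ran with the GC content of their transcripts. Across the 30 members the rank correlation was 0.65, against 0.31 over 12858 tested genes with a value, as a description in which the points share the same libraries. Proc has 56.6% GC, F12 58.5% and Vtn 55.3%, and their log2 fold changes were positive, while F8 has 39.0% and F9 39.0% and theirs were negative. Members of low GC content also went the other way, with Tfpi at 39.7% (log2 0.17), F13b at 41.4% (0.11) and Klkb1 at 43.2% (0.58). The fibrinogen chains have 49.3% (Fga), 44.1% (Fgb) and 42.7% (Fgg, below Klkb1), each with a negative log2 fold change. Tested genes with 41.1% to 43.6% GC, the range that holds Fgg, had a median log2 fold change of -0.19. For those with 43.6% to 45.6%, the range that holds Fgb, it was -0.13. For those with 49.3% to 51.1%, the range that holds Fga, it was -0.032. With gene length the rank correlation was -0.015 across the members and -0.24 over the tested genes.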
